A study of Mus musculus with 6 samples.

Results

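The cytosolic ribosomal protein genes were examined in inguinal adipose tissue (iAT), a subcutaneous fat depot of the mouse, at postnatal day 6. RNA sequencing covered 3 wild-type samples and 3 Npffr1-KO samples, in which *Npffr1*, the gene of a G protein-coupled receptor for neuropeptide FF, is knocked out. All animals were kept under specific-pathogen-free conditions; their strain and sex, and how the knockout was made, are not given in the labels. Of the 19831 genes listed, 88 were members of the family: every symbol that begins with Rpl or Rps followed by a digit, together with *Rplp0*, *Rplp1*, *Rplp2* and *Rpsa*. The kinase genes named Rps6k and *Rps19bp1*, which carry like names and encode no ribosomal protein (11 genes), and 6 symbols marked as pseudogenes were left out. The members comprised 54 proteins of the large subunit and 34 of the small subunit. Among them, 11 were paralogs or retrocopies of another member, which left 46 large-subunit and 31 small-subunit genes, 77 in all.

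The ribosome builds every protein of the cell. Its small subunit reads the messenger RNA and its large subunit joins the amino acids, and each is a body of ribosomal RNA held together by many different proteins. Ribosomal protein transcripts are short, abundant and present in every cell type, and their protein products are needed in matched amounts. Most of them begin with a pyrimidine tract, the TOP motif, through which growth signals sent by the kinase mTOR control their translation.

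The starts of 9 member genes are shown because they carry, or lack, a pyrimidine tract near the listed start. They are those to which the values below return. Each window runs from 30 bases before to 30 bases after the start listed by RefSeq on the GRCm38.p6 assembly, and is written 5′ to 3′ on the strand of the gene. Capitals mark the longest run of at least 8 C or T letters that begins with C inside the window shown.
Rps10, chr17:27635215-27635274, minus strand: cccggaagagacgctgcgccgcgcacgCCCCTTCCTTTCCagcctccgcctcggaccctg
Rplp2, chr7:141447621-141447680, plus strand: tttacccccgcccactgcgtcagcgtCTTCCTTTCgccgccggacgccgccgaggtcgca
Rpsa, chr9:120127736-120127795, plus strand: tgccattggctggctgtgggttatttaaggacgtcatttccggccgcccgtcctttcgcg
Rpl4, chr9:64173357-64173416, plus strand: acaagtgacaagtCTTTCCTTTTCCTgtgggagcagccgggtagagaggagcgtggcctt
Rpl10, chrX:74270786-74270845, plus strand: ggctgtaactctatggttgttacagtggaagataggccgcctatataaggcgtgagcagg
Rpl39, chrX:37085193-37085252, minus strand: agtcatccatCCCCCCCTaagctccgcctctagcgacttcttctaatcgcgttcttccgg
Rpl39l, chr16:10170198-10170257, plus strand: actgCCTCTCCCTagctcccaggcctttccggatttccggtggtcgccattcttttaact
Rps27, chr3:90213619-90213678, minus strand: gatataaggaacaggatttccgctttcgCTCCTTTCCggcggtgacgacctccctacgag
Rps27rt, chr9:114982710-114982769, minus strand: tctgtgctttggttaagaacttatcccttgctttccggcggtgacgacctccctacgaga

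In *Rps10*, *Rplp2* and *Rps27* the tract lies across the listed start. *Rpl10* and *Rpsa* have no run of that length there. The window of *Rps27rt*, a retrocopy, shares an unbroken run of 29 bases with that of *Rps27*, ctttccggcggtgacgacctccctacgag, which begins inside the tract of *Rps27*. A RefSeq start window was found for 67 of the 88 members. Of the 64 such members whose mean reached 10 normalized counts, 71.9% held a tract that begins within 40 bases of a listed start. Of 12004 other genes of that level, 28.3% did. In the whole stretch from 250 bases before to 50 after the start, searched on both strands, CCGGAAG, the core bound by ETS factors, was found in 40.6% of members and 17.7% of the others. The sequence TCTCGCGA was found in 17.2% and 2.06%, and AAGATGG, part of the YY1 element, in 15.6% and 7.81%. The TATA box TATAAA was found in 10.9% and 9.26%, the GC box GGGCGG in 60.9% and 64.8%, and the E-box CACGTG in 6 of the 64 members and 1325 of the 12004 others. None of these motifs contains another, though matches can overlap in part, as CCGGAAG read on the other strand can with a tract. Such matches describe the letters and do not show that a factor is bound.

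The authors deposited 1 normalized count per gene and genotype, set for all 6 libraries together. These pooled values carry no replicate error, so no test between the genotypes could be made for members with many reads, and every difference below is a description of a pair of values, except where the reads of the libraries could be recovered. The mean of the pair equals the mean of the normalized counts over the libraries, while their ratio was drawn toward 1 for genes with few reads: for genes with a single read in all libraries, the log2 ratio was at most 0.0743 in size and neither value was 0. The values summed to 23137343 in wild-type and 23640005 in Npffr1-KO, and the libraries' size factors, read from genes with a single read, lay between 0.916 and 1.04. *Npffr1* itself was at 1.12 normalized counts in wild-type against 0.855 in Npffr1-KO. At so low a level the ratio is drawn toward 1, so that this pair alone gives no check of the labels. The reads of *Npffr1* in each library were not recovered here. All 8 adipocyte markers searched were present, with a sum of 378494 normalized counts in wild-type against 412054 in Npffr1-KO.

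In wild-type iAT the members held 4.62% of all normalized counts, though they are 0.444% of the genes. In Npffr1-KO they held 5.58%. In bulk tissue, fewer cells of a type and less RNA per cell cannot be told apart. Divided by gene length, the shares were 12.6% and 14.2%. Of the 100 highest genes in wild-type, 13 were members, and of the highest 500, 67 were. Ranked per length, 48 of the highest 100 genes were members. The summed value of the family was 1069722 in wild-type and 1319885 in Npffr1-KO, 1.23-fold higher, whereas the sum over all other genes was 1.01-fold higher. Sets of other genes taken up below also had higher sums in Npffr1-KO. These were 69794 against 86073 for the 77 mitochondrial ribosomal protein genes and 29870 against 36198 for the 14 proteasome core genes. For 3033 other genes of 451 to 1596 bases they were 4138588 against 4738903. The members' sum differed by 250163 normalized counts, which is 49.8% of the net difference between the totals of the genotypes. In that net difference, genes with higher and lower values offset each other. Of 15309 genes with a mean of at least 10, 7835 were higher and 7474 lower in Npffr1-KO. The percentage is therefore not the members' share of all change.

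Among themselves, the 77 genes that are not paralogs spanned a 51.3-fold range per length in wild-type. *Rpl41*, the smallest protein of the ribosome, was highest with 50874 normalized counts per kb in wild-type and 61313 in Npffr1-KO. It was followed by *Rpl23a*, which sits at the exit of the peptide tunnel, with 37969 and 46277. The stalk gene *Rplp1* had 37259.7 and 51032, and *Rps26*, at the exit of the messenger RNA channel, had 35687 and 41568. *Rps24* completed the upper end with 31557 and 40431. These were the values per length, and the order of neighbours has no error to judge it by. At the lower end *Rps15a* had 993 normalized counts per kb in wild-type and 1300.3 in Npffr1-KO. *Rps20* had 2916 and 3441, and *Rpl22*, an RNA-binding protein of the large subunit, 2968 and 3536. *Rpl31* followed with 5095 and 6206 and *Rpl37* with 5831 and 7084. The low values of *Rps15a* and *Rps20* go with their listed lengths of 5158 and 3446 bases, where the median of the 77 genes was 729. The GENCODE M21 coding transcripts of *Rps15a* run from 250 to 5179 bases, and the only one of *Rps20* has 3706. The order of the genes was nearly the same in both genotypes, with a Spearman rho of 0.99 across the 77 genes, which share the 6 libraries and one set of lengths.

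**Figure D1:**
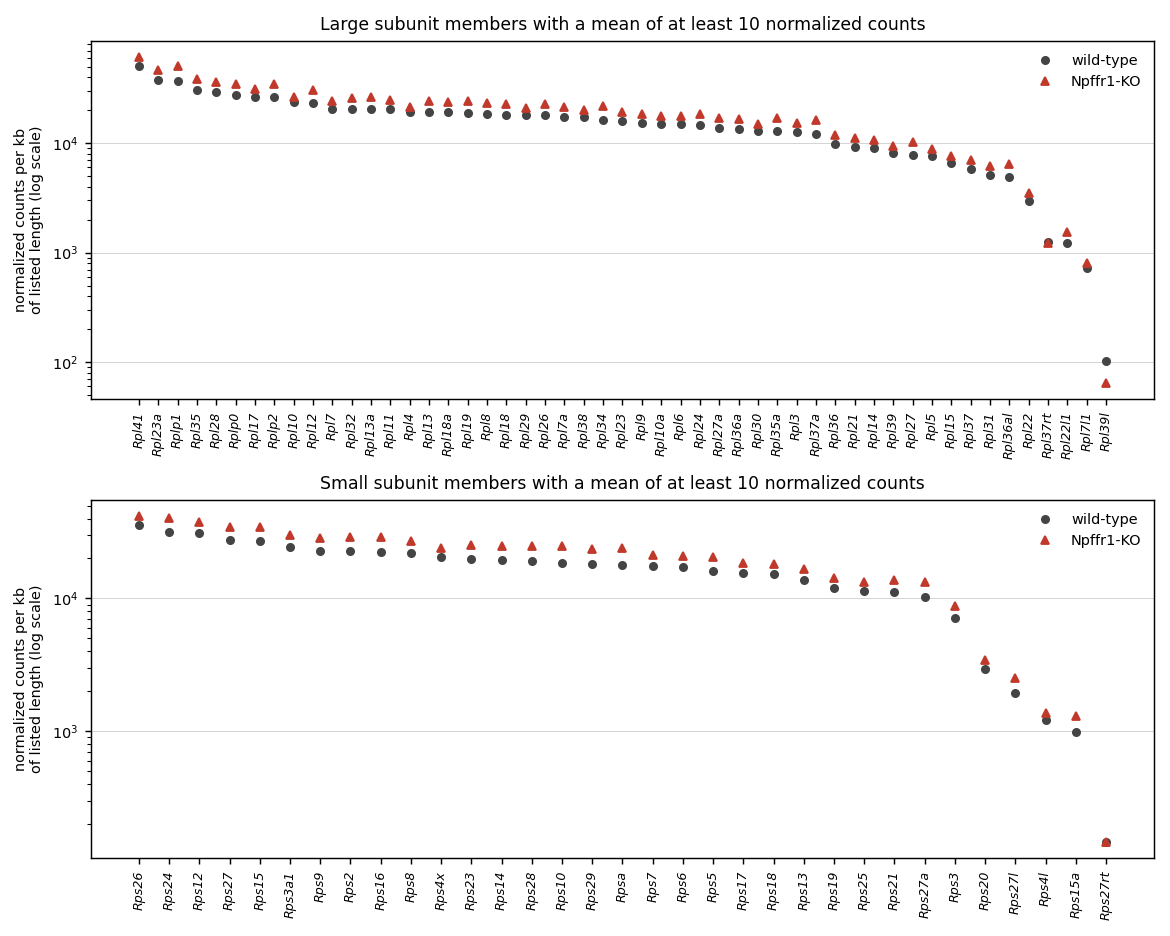
Normalized counts per kb of listed gene length (log scale) of 51 large-subunit and 33 small-subunit members with a mean of at least 10, ordered by the wild-type value; circles are wild-type and triangles Npffr1-KO, 1 pooled value each with no error. The triangle lies above the circle for 81 of the 84 members drawn; *Rpl39l*, *Rpl37rt* and, by less than the size of a symbol, *Rps27rt* are the exceptions.

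The pair of values was compared as a log2 ratio of Npffr1-KO over wild-type. A mean of at least 10 normalized counts was reached by 85 members and by 15309 genes in all. The members' median log2 ratio was 0.30, with quartiles of 0.25 and 0.36, against 0.01 for all genes. At least 1.2-fold higher in Npffr1-KO were 59 of the 85 members (69.4%), where 16.8% of all genes were. At least 1.2-fold lower was 1 member, *Rpl39l*, where 15.6% of all genes were. When each gene was set against the median of other genes of like length, as described below, 3 members were 1.2-fold higher in place of 59, where 11.7% of all genes were. All 77 genes that are not paralogs had a higher value in Npffr1-KO, by 0.14 to 0.45 on the log2 scale with an SD across genes of 0.0664, and 56 of them were past 1.2-fold. No member was 1.5-fold higher.

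In the large subunit without paralogs the median log2 ratio was 0.29, with 32 of 46 genes past 1.2-fold, and 0 when set against genes of like length. *Rplp1* had the highest ratio among members with a mean of at least 10, with 17438 normalized counts in wild-type against 23883 in Npffr1-KO, a log2 ratio of 0.45. *Rplp1* also shares 75.1% of its 31-base words with other genes, so that its count is uncertain. It encodes an acidic protein of the stalk, the flexible arm of the large subunit that recruits elongation factors. Its partner on the stalk, *Rplp2*, had 11541 and 15380.3, a log2 ratio of 0.41, and *Rplp0*, the base of the stalk, had 37668 and 47203, a log2 ratio of 0.33. All 3 stalk genes were past 1.2-fold. *Rpl37a*, a zinc-binding protein, had 7311 and 9721, a log2 ratio of 0.41. *Rpl34* had 8111 and 10706, a log2 ratio of 0.40. The lowest ratios were those of *Rpl10* and *Rpl4*. *Rpl10*, which joins the large subunit late in its assembly, had 19168 and 21128, a log2 ratio of 0.14. *Rpl4*, a protein of the wall of the peptide tunnel, had 27605 and 30603, a log2 ratio of 0.15.

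In the small subunit without paralogs the median was 0.31, with 24 of 31 genes past 1.2-fold, and 3 when set against genes of like length. *Rps10*, a protein of the head of the subunit, led with 10584 normalized counts in wild-type against 14220.0 in Npffr1-KO, a log2 ratio of 0.43. *Rpsa*, also known as the laminin receptor precursor, had 33299 and 44319, a log2 ratio of 0.41. In absolute terms the difference of *Rpsa*, 11019.9 normalized counts, exceeded that of every other member. *Rps15a* had 5119.6 and 6707, a log2 ratio of 0.39, and *Rps29*, a small zinc-binding protein, had 8099 and 10507, a log2 ratio of 0.38. At the lower end of the subunit were *Rps26* with 16309 and 18996 (log2 ratio 0.22) and *Rps25* with 7986 and 9364 (0.23). The medians of the subunits, paralogs included, differed by -0.024 (large minus small), a value with no error to judge it by.

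**Figure D2:**
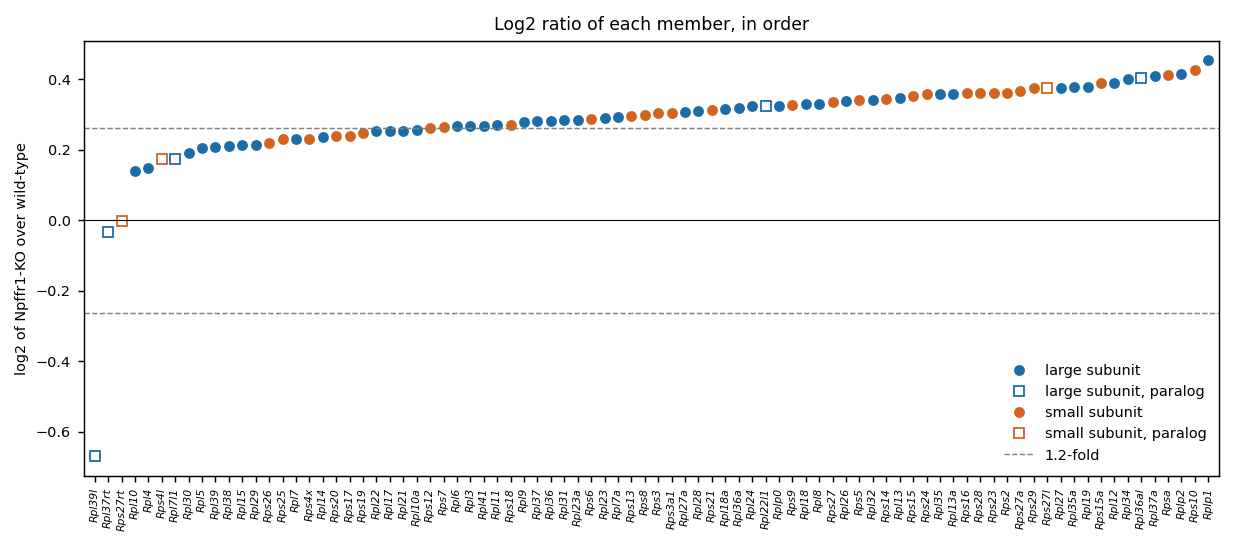
Log2 ratio of Npffr1-KO over wild-type (vertical axis) for 84 members with a mean of at least 10, in order; blue is the large and orange the small subunit, open squares are paralogs, and dashed lines mark 1.2-fold. The filled circles run in small steps from 0.14 to 0.45, while *Rpl39l* lies apart at -0.67.

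Each of the 11 paralogs had a lower value than its partner in both genotypes, and their log2 ratios ranged more widely than those of the other members. A mean under 10 was found for 3 of them, and of the other 8, 3 were at least 1.2-fold higher in Npffr1-KO and 1 was lower. *Rpl36al*, which differs little from *Rpl36a*, had 2578 normalized counts in wild-type against 3412 in Npffr1-KO, a log2 ratio of 0.40, beside 6676 and 8323 (0.32) for *Rpl36a*. *Rps27l*, a target gene of p53, had 1002 and 1300.4 (0.38), beside 10203 and 12876 (0.34) for *Rps27*. *Rpl22l1* had 583 and 730.2 (0.33), beside 6517 and 7765 (0.25) for *Rpl22*. *Rpl7l1* had 1872 and 2114 (0.18), beside 19353 and 22694 (0.23) for *Rpl7*. *Rps4l* had 1143 and 1290.1 (0.17), beside 20363 and 23882 (0.23) for the X-linked *Rps4x*. *Rpl37rt*, a retrocopy, had 840.0 and 822, a log2 ratio of -0.03, beside 5055 and 6141 (0.28) for *Rpl37*.

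For the 5 members with a mean of at most 100 normalized counts, the reads of each library were recovered from the deposited pair: exactly 1 combination of whole reads gave its mean. The libraries are called a, b and c within a genotype and are not tied to sample numbers. *Rpl39l*, a paralog of the tunnel protein *Rpl39* known from testis, had 94, 85 and 80 reads in wild-type and 47, 38 and 63 in Npffr1-KO. Every Npffr1-KO library was below every wild-type library. In normalized counts this was 84.5 ± 5.80 against 50.8 ± 15.9 (SD, n = 3 each), a log2 ratio of -0.73, with p = 0.1 in an exact two-sided permutation test, the smallest p that 3 against 3 allows. Of 208 genes with a mean within 5 of that of *Rpl39l* whose reads were recovered, 15.9% also had every Npffr1-KO library below every wild-type library. *Rpl39l* was taken up this way after its values were seen. *Rpl39* itself had 3517 and 4067 normalized counts, a log2 ratio of 0.21.

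*Rps27rt* had 168 reads in 1 wild-type library, 168 in 1 Npffr1-KO library and 0 in the other 4 libraries, so that its log2 ratio of -0.00 rests on a single library of each genotype. Of its 31-base words, 92.7% also occur in other genes of GENCODE M21. *Rpl3l*, the form of *Rpl3* used in striated muscle, had 7, 0 and 4 reads in wild-type and 11, 4 and 0 in Npffr1-KO. The groups overlapped, and *Rpl3* had 17126 and 20636 normalized counts (log2 ratio 0.27). *Rpl32l* had 0, 0 and 2 reads in wild-type and 3, 1 and 6 in Npffr1-KO, a count too low to read a difference from, and *Rpl32* had 10382 and 13160.2 normalized counts (0.34). *Rpl10l*, which stands in for X-linked *Rpl10* in male germ cells, had a single read over all 6 libraries, in 1 Npffr1-KO library.

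**Figure D3:**
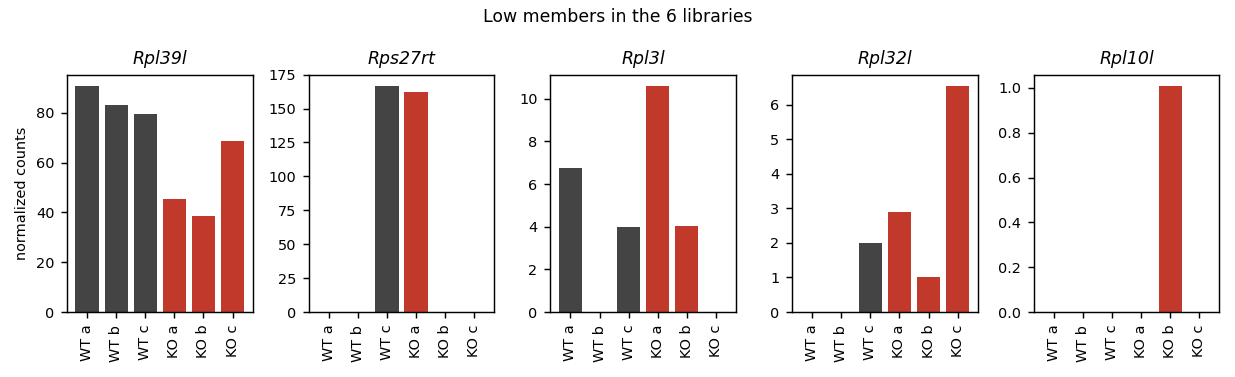
Normalized counts of the 5 lowest members in each of the 6 libraries; each bar is 1 library (grey, wild-type; red, Npffr1-KO), and each panel has its own axis from 0. In *Rpl39l* all 3 red bars are below all 3 grey bars, and *Rps27rt* is seen in 1 library of each genotype.

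Many members have pseudogenes and copies that share their sequence, and the counting could divide reads between them. The median member shared 24.5% of its 31-base words with another gene of GENCODE M21; the share was 94.1% for *Rpl36* and 76.9% for *Rps3a1*. Across the 77 genes the share had a Spearman rho of -0.03 with the log2 ratio. The 6 pseudogene symbols left out had log2 ratios from -0.35 to 1.23. The most abundant of them, *Rpl31-ps12*, had 3643 normalized counts in wild-type against 4249 in Npffr1-KO, a log2 ratio of 0.22.

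Gene length moved with the log2 ratio across all genes: the Spearman rho was -0.38 over 15309 genes. In the shortest of 20 classes of listed length, 64 to 862 bases, the 761 genes that are not members had a median log2 ratio of 0.26 and 48.6% were at least 1.2-fold higher. The 57 members in that class had a median of 0.33. In the longest class, from 7435 bases, the median of the other genes was -0.15. The classes match listed length and not level. When each member was set against the median of the other genes of its class, the members' median was 0.084 in place of 0.30. On that scale 69 of 85 members were above 0, where 7676 of all 15309 genes were. So were 71 of the 77 mitochondrial ribosomal protein genes and 13 of the 14 proteasome core genes, which are taken up below. At least 1.2-fold higher on that scale were 3 members, where 11.7% of all genes were, and 2 were lower, where 15.1% of all genes were. The 3 were *Rps15a* (0.49), *Rpsa* (0.33) and *Rps20* (0.27), among which *Rps15a* and *Rps20* are the members with the longest listed lengths. The 2 lower ones were *Rpl39l* (-0.93) and *Rpl37rt* (-0.29). *Rpl37rt* shares 48.1% of its 31-base words with other genes, so that its count is uncertain. What links length to the ratio in these libraries was not tested. Within the 77 genes the ratio had a Spearman rho of -0.21 with length and of -0.06 with the wild-type level.

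**Figure D4:**
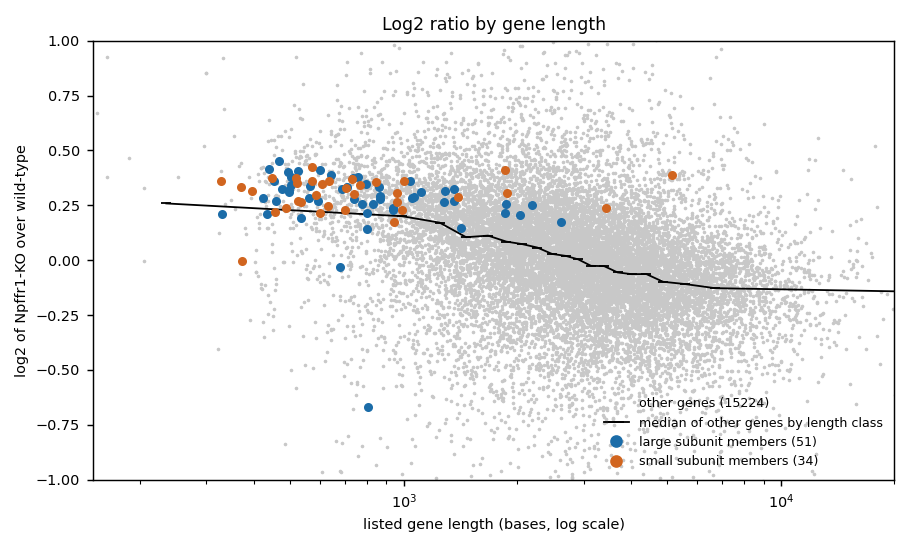
Log2 ratio of Npffr1-KO over wild-type against listed gene length (bases, log scale) for the other genes (grey), with the median of each of the 20 length classes as a line, and for members of the large (blue) and small (orange) subunit; the few genes beyond the ends of the axes are not drawn. Most members lie at or a little above the left end of the line, which runs from 0.26 down to -0.15, and *Rps15a* lies far above it at 5158 bases.

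Other genes of the translation machinery were set beside the members. Of all genes with a mean of at least 10, 16.8% were past 1.2-fold higher, and 11.7% against genes of like length. *Fau* and *Rack1*, which encode ribosomal proteins under other names, had log2 ratios of 0.37 and 0.27. The 77 mitochondrial ribosomal protein genes, which build a separate ribosome inside the mitochondrion, had a median of 0.31, with 49 past 1.2-fold higher and 0 lower. Set against genes of like length, theirs was 0.14 with 12 past 1.2-fold, above the 0.084 and 3 of the cytosolic members. The 14 genes of the proteasome core, a complex of other short and abundant transcripts, had a median of 0.29 and 9 were past 1.2-fold higher, which became 0.093 and 0 against genes of like length. Of 3033 other genes of 451 to 1596 bases, the range that holds the middle of the members' lengths, 34.8% were past 1.2-fold higher, with a median of 0.18. Of the 198 among these that also reached the lowest level of the 77 members, 41.4% were, with a median of 0.22. Set against genes of like length, the 198 had a median of 0.047, and 119 of them were above 0. On that scale 23 were past 1.2-fold higher and 11 lower. Both the 3033 and the 198 genes were longer than the members, with median lengths of 1170.0 and 1132 bases against 708. They therefore do not match them in length.

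**Figure D5:**
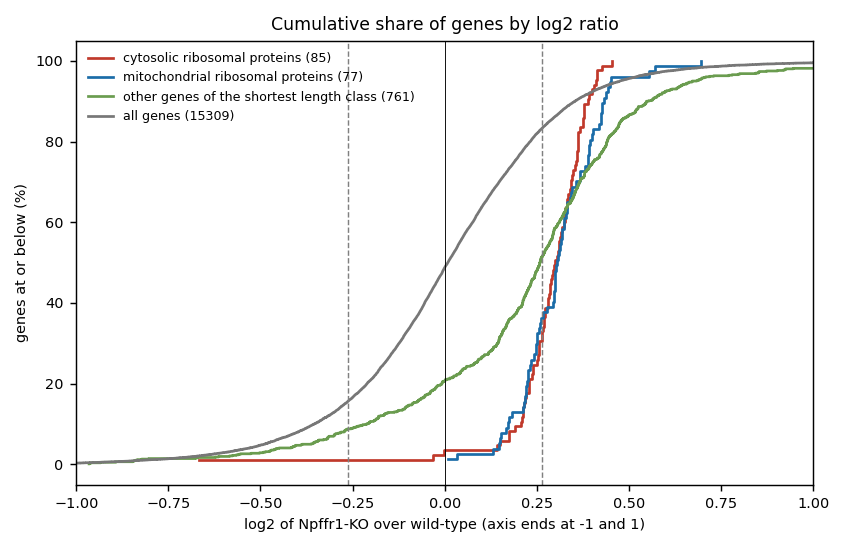
Cumulative share of genes (%) by log2 ratio of Npffr1-KO over wild-type, for 85 cytosolic ribosomal protein genes (red), 77 mitochondrial ribosomal protein genes (blue), 761 other genes of 64 to 862 bases, the length class of 57 members (green), and all 15309 genes (grey), with dashed lines at 1.2-fold. The red and blue lines nearly coincide around medians of 0.30 and 0.31, against 0.26 for the green and 0.01 for the grey line; the green line rises less steeply and crosses them.

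The lists that follow share some genes: genes of the TOP list are also among the eIF3, ribosome assembly and elongation factor genes. Over all genes with a mean of at least 10, 16.8% were past 1.2-fold higher, and 11.7% against genes of like length. Of the 17 other genes known to carry a TOP motif, 5 were past 1.2-fold higher, with a median of 0.13. Set against genes of like length, 0 of them were, with a median of 0.064. *Eef1a1*, the elongation factor that delivers transfer RNA, had 170408 normalized counts in wild-type against 182755 in Npffr1-KO, a log2 ratio of 0.10. The elongation factors *Eef2* and *Eef1b2* had log2 ratios of 0.08 and 0.31, the latter the highest of the list, *Vim* had 0.02, and *Eif4b* was lowest with -0.07. Within the 77 members, the 42 with a tract that begins within 40 bases of a listed start and the 15 without one both had a median log2 ratio of 0.31. That rule also takes in runs that end before the listed start, as in *Rpl4* and *Rpl39*. It therefore does not separate transcripts with a TOP motif from those without one. Of 33 genes for ribosome assembly, 14 were past 1.2-fold higher, with a median of 0.22, and *Mrto4* was highest with 489.5 and 686 normalized counts, a log2 ratio of 0.49. Set against genes of like length, that list kept a median of 0.21, with 10 past 1.2-fold. Among 14 genes of RNA polymerase I and its factors, which transcribe ribosomal RNA, the median was 0.14 with 4 past 1.2-fold, and 0.091 with 2 against genes of like length. Among 13 subunits of the initiation factor eIF3 it was 0.19 with 2 (15.4%), and 0.11 with 0 against genes of like length. Of a list of 10 elongation factor and related genes, *Eef2k* and *Eef1e1* included, 9 reached a mean of 10. Their median was 0.27 with 5, and 0.11 with 0 against genes of like length. The 9 snoRNA host genes had 0.15 with 2 higher, and against genes of like length -0.097 with 0 higher and 2 lower. The 23 genes of the mTOR pathway, the ribosomal S6 kinases and Myc had a median of -0.01. Of these, 2 (8.70%) were higher, *Myc* (0.42) and *Rps6ka1* (0.36), and 0 lower. Against genes of like length their median was 0.037, with 2 higher and 2 lower.

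Markers of cell types also differed between the deposited pairs. Of all genes with a mean of at least 10, 16.8% were past 1.2-fold higher and 15.6% lower. Against genes of like length these shares were 11.7% and 15.1%. All 8 lymphocyte markers, genes of T and B cells, had a higher value in Npffr1-KO, 6 of them past 1.2-fold, and their sum was 12419.7 normalized counts in wild-type against 16641 in Npffr1-KO. All 4 skeletal muscle markers were past 1.2-fold higher, with sums of 332 and 662, and so were all 4 brown adipocyte markers, with sums of 904 and 2987. All 3 endothelial markers were past 1.2-fold lower, with sums of 48763 and 38529.7, and so were 2 of 3 fibroblast markers. Against genes of like length, 4 of the 8 lymphocyte markers, all 4 muscle and all 4 brown adipocyte markers were past 1.2-fold higher, and 2 of the 3 endothelial and 0 of the 3 fibroblast markers were lower. Of the 8 adipocyte markers, 6 were higher and 2 lower, with log2 ratios from -0.07 to 1.05. Past 1.2-fold, 2 of them were higher and 0 lower, as also against genes of like length. On the values as deposited, 2 of the 4 macrophage markers were higher, and of the 4 proliferation and the 4 erythroid markers 0 were past 1.2-fold. Of the 3 keratinocyte markers 1 reached a mean of 10. None of these markers is listed at 0, but the pooled pair gives no 0 even to genes with a single read. A listed value therefore does not show that a marker was read in both genotypes. Their part in the members' difference was not tested.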

How the data were processed

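RNA of iAT was sequenced from 3 wild-type and 3 Npffr1-KO samples, grouped by the genotype in the labels. Nothing states whether samples of a genotype came from separate animals or pools. Per the submitters' processing notes, Bowtie2, RSEM and DESeq2 were used; their versions are not stated, and neither genome build nor annotation is given in the sources used here. The authors deposited, for each gene and genotype, a signal made of normalized read counts, 1 value in place of the 3 libraries, and the gene length. The table's fold changes and p-values, and a second, shorter table chosen on them, hold the authors' own comparison and were not used. All value columns were mapped (0 left over). The study is known here through a paper that cites earlier work for these data.

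Python 3.11.15 with numpy 2.4.6, pandas 2.3.3, scipy 1.17.1 and matplotlib 3.10.9 was used. The log2 ratio of the pair was taken without a pseudocount for genes with a mean of at least 10, and genes were counted past 1.2-fold. With 1 value per genotype there was no test, interval or replicate error, except from the recovered reads of *Rpl39l*, and depth per library is known only through the size factors. Length was handled by subtracting the median log2 ratio of non-members in 20 classes of listed length. Reads of low members were sought over whole-read combinations of the 6 libraries; the search was tested on simulated data. The genotype of a library follows from which value of the pair is higher for genes with a single read. Raising the mean for this search to 100 and the comparison around *Rpl39l* were chosen after seeing the data.

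Named were, among members that are not paralogs, the 5 at each end of level per length, and, among all with a mean of at least 10, the 5 at each end of the log2 ratio and genes at both ends within each subunit, the stalk, and each paralog with its partner; of the other gene lists, some genes at the ends of level or ratio. Some genes are not reported here by name or in the plots that name genes. *Rpl36* and *Rps3a1*, and *Rpl31-ps12*, were named after their values were seen. The members and lists were chosen with earlier results of these data known, and *Rpl32l* and *Rpl37rt* joined the paralogs after the symbols were read. Sequences are from RefSeq (GRCm38.p6) and GENCODE M21, which may differ from the authors' annotation.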

Additional observations from a re-analysis of the deposited data

How the results depend on the processing

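The number of members at least 1.2-fold higher in Npffr1-KO was 59. It was 82 at 1.1-fold, 0 at 1.5-fold, 59 with a pseudocount of 10, 54 after centring on the median of all genes, 60 with no filter on low values and 59 at a mean of at least 100. It was 3 after centring on genes of like length, as in the report. The number at least 1.2-fold lower was 1. It was 2 after centring on genes of like length, 0 at a mean of at least 100, which leaves out *Rpl39l*, and 1 in the others. The median log2 ratio of 0.30 was 0.29 after centring on all genes, 0.084 after centring on length, and 0.31 both at a mean of at least 100 and without paralogs. The difference between the subunits, -0.024, was -0.0016 after centring on length and -0.025 without paralogs. The members' share in wild-type was 5.02% without the 10 highest other genes and 12.6% per length, and in Npffr1-KO 6.02% and 14.2%. No direction was reversed in any of these. For *Rpl39l* the log2 ratio from the reads was -0.73, and leaving out each library in turn gave -1.01 to -0.57. The pooled values have no replicates, so for all other results no library could be left out. No paired analysis was possible because the table holds 1 value per genotype.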
